A study of Mus musculus with 2 samples.

Results

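The genes of the mitochondrial ribosome were examined in single-cell RNA-seq of mouse prostate tissue with tumour lesions. Members were taken by name, as every feature in both libraries whose symbol was Mrpl or Mrps followed by a number and at most 1 letter a, b or c. This gave 77 of 28000 features, 48 named Mrpl and 29 named Mrps, on 17 chromosomes. The names do not match the structure everywhere. Mrps18a and Mrps30 carry small-subunit names but their proteins sit in the large subunit, and Mrps36 is now known as a component of the 2-oxoglutarate dehydrogenase complex rather than of the ribosome. By structure the set therefore held 50 large-subunit genes, 26 small-subunit genes and Mrps36.

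The mitochondrial ribosome translates the few proteins that mitochondrial DNA encodes, all of them subunits of the respiratory chain and ATP synthase. Its RNAs come from mitochondrial DNA, but all of its proteins are encoded in the nucleus, made on cytosolic ribosomes and imported. Some have a counterpart in bacterial ribosomes and others occur only in mitochondria. Because its products assemble with nuclear-encoded subunits of oxidative phosphorylation (OXPHOS), the amounts of both sets of transcripts are often considered side by side.

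The 2 genotypes were compared, with 1 library each, so library and genotype cannot be told apart and no difference has a replicate check. The DoubleTg library (hHGFtg-hMETtg-PBCre) came from prostatic adenocarcinoma and the TripleTg library (hHGFtg-hMETtg-Ctnnb1-PBCre) from prostatic carcinoma. Both carried a human HGF transgene expressed throughout the body, a human MET transgene at the H11 locus that is silent until Cre removes a stop cassette, and PB-Cre4, in which the probasin promoter drives Cre in prostate epithelium. TripleTg alone added a Ctnnb1 allele whose floxed exon 3 is removed by Cre, which leaves a stabilised β-catenin. The methods give different littermates and a mixed background. The study states that the DoubleTg tissue held high-grade prostatic intraepithelial neoplasia as well as cancer lesions, so lesion stage may differ too. Ages and the number of mice in each library are not given in the labels, and the loss of exon 3 cannot be checked with reads from transcript 3′ ends.

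After the study's own limits on genes per cell and mitochondrial reads, 10598 of 12072 deposited DoubleTg barcodes (87.8%) and all 9492 TripleTg barcodes were analysed, with medians of 16761 and 20097 unique molecular identifiers (UMIs) per cell. A UMI counts 1 captured transcript. Each cell was thinned to 5000 UMIs, which left 8427 DoubleTg and 7793 TripleTg cells, and levels are given as UMIs per 1000000 UMIs (CPM) over the cells of a class. Intervals are exact 95% intervals and cover counting error only. Cells were clustered within each library and clusters named from marker genes, so the classes need not match those in the original work, and no cluster is shared between libraries. Some luminal-like clusters were led by other genes, among them interferon-induced genes such as Rsad2 and Ifit1 in 1 cluster of each library and the antimicrobial genes Reg3b and Reg3g in 1 of TripleTg. In TripleTg, a luminal-like cluster of 391 cells was led by genes of cornified epithelium and hair sheath (Tchh, Cnfn, Krt73, Rptn), and a basal-like cluster of 285 cells by Mt4, Sprr1b, Asprv1 and Krt42, likewise of squamous or hair type. Both were named from the shares of marker genes, and values without them are given below. The libraries shared 29 barcodes. A summed level does not tell fewer expressing cells from less RNA per cell.

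The luminal-like classes, which held 4745 DoubleTg and 4741 TripleTg cells at 5000 UMIs, differed in more than genotype. Pbsn, the probasin gene, stood at 1620 CPM in DoubleTg and 7.55 CPM in TripleTg luminal-like cells. A UMI of the human MET transgene was seen, at 5000 UMIs, in 69.7% and 10.7% of them, against 14.9% and 13.4% of fibroblast-like cells and 8.40% and 1.70% of macrophage-like cells, which should both lack it. The TripleTg luminal share was thus above that of macrophage-like but not of fibroblast-like cells, and the latter also carried Krt8 at 971 CPM. Secretory gene products took 6.02% and 0.271% of luminal UMIs, cytosolic ribosomal protein genes 22.1% and 29.5%, and cycling cells made up 0.316% and 8.50%. Their part in the values below was not tested, except where a value without cycling cells or with another total is given.

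Nearly every member was detected in luminal-like cells. In DoubleTg, 76 of the 77 (98.7%) reached 5 CPM and in TripleTg 74 (96.1%), against 30.2% and 29.6% of all features. The median member stood at 37.6 CPM in DoubleTg and 39.3 CPM in TripleTg. The order of the members was much the same in both libraries, with a Spearman correlation of 0.94 across the 77 genes, which are not independent replicates. These levels count 3′ ends and are not scaled by length, so a rank also reflects how well each transcript end was captured and annotated.

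The most abundant member in DoubleTg was Mrpl52, a large-subunit protein found only in mitochondria, at 268 CPM. It was followed by Mrpl30 at 162 CPM, Mrpl33 at 145 CPM and Mrpl54 at 141 CPM, all of the large subunit. Mrps24 at 123 CPM and Mrps21 at 111 CPM were the highest small-subunit genes, with Mrpl17 and Mrpl14 at 111 and 110 CPM, Mrps14 at 103 CPM and Mrpl20 at 98.5 CPM. These 10 genes carried 33.7% of all member UMIs. In TripleTg the first place went to Mrps18a at 287 CPM, ahead of Mrpl52 at 252 CPM. Mrpl33 stood at 167 CPM there, Mrpl57 at 150 CPM, Mrpl54 at 139 CPM, Mrpl14 at 135 CPM, Mrps14 at 122 CPM, Mrpl30 at 117 CPM, Mrpl20 at 113 CPM and Mrps33 at 107 CPM. The leading 10 of TripleTg carried 37.6% of member UMIs.

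The scarcest member in both libraries was Mrpl53, a mitochondria-specific large-subunit gene, with 9 UMIs in DoubleTg luminal-like cells (0.379 CPM) and 3 in TripleTg (0.127 CPM). Mrps27, whose protein has pentatricopeptide repeats, came next in DoubleTg at 5.40 CPM and stood at 4.51 CPM in TripleTg. Mrps2, a bacterial-type small-subunit gene, stood at 7.29 and 4.43 CPM. Mrps22 at 8.22 CPM and Mrpl47 at 8.43 CPM completed the lowest 5 in DoubleTg, and Mrpl47 at 5.40 CPM and Mrps31 at 8.35 CPM those in TripleTg. Scarce members thus occurred in both subunits.

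The summed level of the 77 members was highest, among named classes, in luminal-like cells of both libraries, at 4071 CPM (4045 to 4096) in DoubleTg and 4225 CPM (4199 to 4252) in TripleTg. The DoubleTg cells in unnamed clusters, summed, stood at 4099 CPM (3977 to 4223). The luminal-like levels are a mean of 20.4 and 21.1 member UMIs per cell of 5000, with a median of 20 in both. In DoubleTg, basal-like cells followed at 3848 CPM, T or NK-like cells at 3539 CPM, erythroid-like cells at 3477 CPM (only 81 of 581 cells reached 5000 UMIs) and seminal vesicle-like cells at 3151 CPM. Fibroblast-like and endothelial-like cells stood at 2639 and 2631 CPM, and macrophage-like and dendritic-like cells at 2321 and 2308 CPM, so neither of these pairs differed beyond its intervals. In TripleTg, smooth muscle-like, endothelial-like, basal-like, fibroblast-like and macrophage-like cells stood at 3490, 3275, 3259, 3164 and 3060 CPM, and neighbours in this order had overlapping intervals, and seminal vesicle-like cells were lowest at 2598 CPM.

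**Figure D1:**
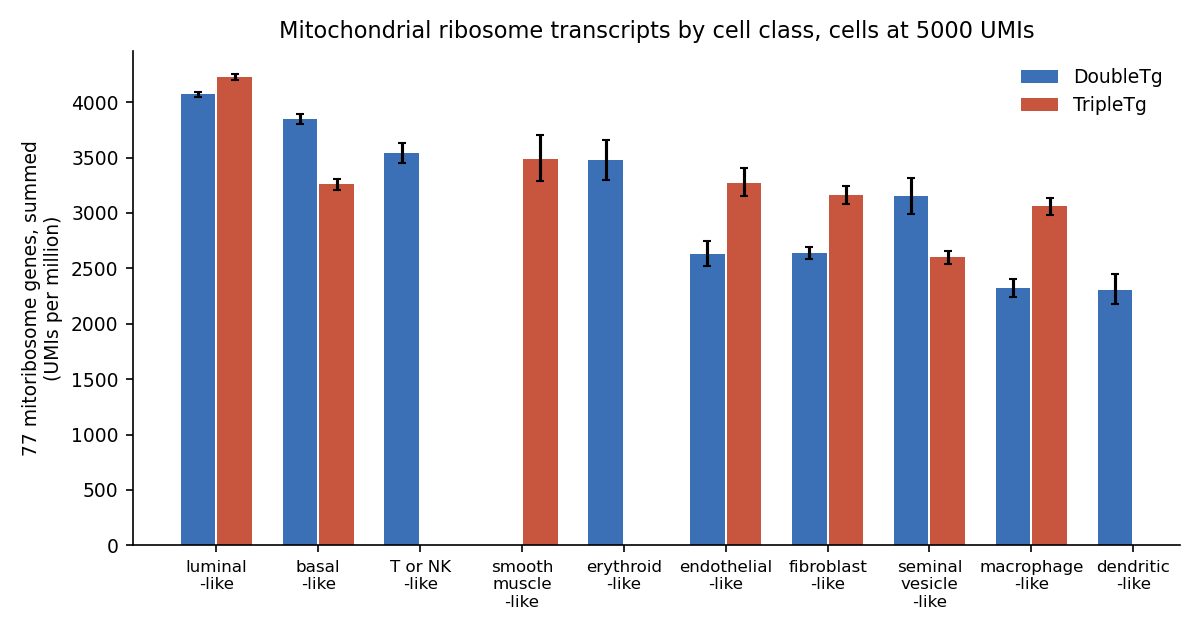
Summed level of the 77 mitochondrial ribosome genes (CPM, cells at 5000 UMIs) in each named class with at least 50 such cells, for the DoubleTg and TripleTg libraries. Bars start at 0 and lines are exact 95% Poisson intervals for counting error; luminal-like cells were the highest named class in both libraries at 4071 and 4225 CPM, and a missing bar is a class with fewer than 50 cells or one to which no cluster of that library was assigned.

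The first place of luminal-like cells depended on what the total included. When mitochondrially encoded and secretory genes were left out of the total, seminal vesicle-like cells stood highest in both libraries, at 5024 CPM in DoubleTg and 4547 CPM in TripleTg, and luminal-like cells were at 4508 and 4400 CPM. Secretory transcripts took 34.3% of the UMIs of DoubleTg seminal vesicle-like cells. At 2000 UMIs per cell, DoubleTg erythroid-like cells, in which secretory genes took 25.7% of UMIs at 5000 per cell, passed luminal-like cells at 4255 against 4106 CPM. Across all kept cells the libraries stood at 3770 and 3799 CPM.

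Within the luminal-like class the level varied between clusters. The 9 DoubleTg clusters ranged from 2703 CPM, in a cluster led by Scgb2b27 and Sbp whose secretory transcripts took 43.8% of UMIs, to 4569 CPM in a cluster led by Pcp4 and Msmb. The 9 TripleTg clusters ranged from 3602 CPM to 5286 CPM, the highest being a cluster led by the mitotic genes Ube2c and Top2a, in which 88.7% of cells were cycling. The only DoubleTg cluster above 5000 CPM had no name. It stood at 5060 CPM, 70.2% of its cells were cycling, and its leading genes mixed Ube2c with the neutrophil genes S100a8, S100a9 and Camp.

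Across clusters the member sum followed the nuclear OXPHOS sum. The Spearman correlation was 0.93 over 22 DoubleTg clusters and 0.87 over 24 TripleTg clusters. The correlation with the share of cytosolic ribosomal protein UMIs was 0.38 and 0.69, with that of mitochondrially encoded mRNAs 0.25 in both, and with the share of cycling cells 0.20 and 0.18. With the share of secretory UMIs it was 0.23 and -0.55, and with median depth before thinning 0.46 and 0.30. Their parts in the correlation with OXPHOS were not tested. Over epithelial-like clusters alone (12 and 14), the correlation was 0.92 and 0.90 with OXPHOS and 0.23 and 0.50 with mitochondrially encoded mRNAs. It was -0.09 and -0.59 with secretory UMIs and -0.04 and -0.03 with depth. Clusters of 1 library share its reads and the same total, so these are descriptions. The basal-like clusters of DoubleTg had the most member UMIs for each OXPHOS UMI of the 22, 0.247 and 0.240. DoubleTg luminal-like cells had 0.181 over the class.

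**Figure D2:**
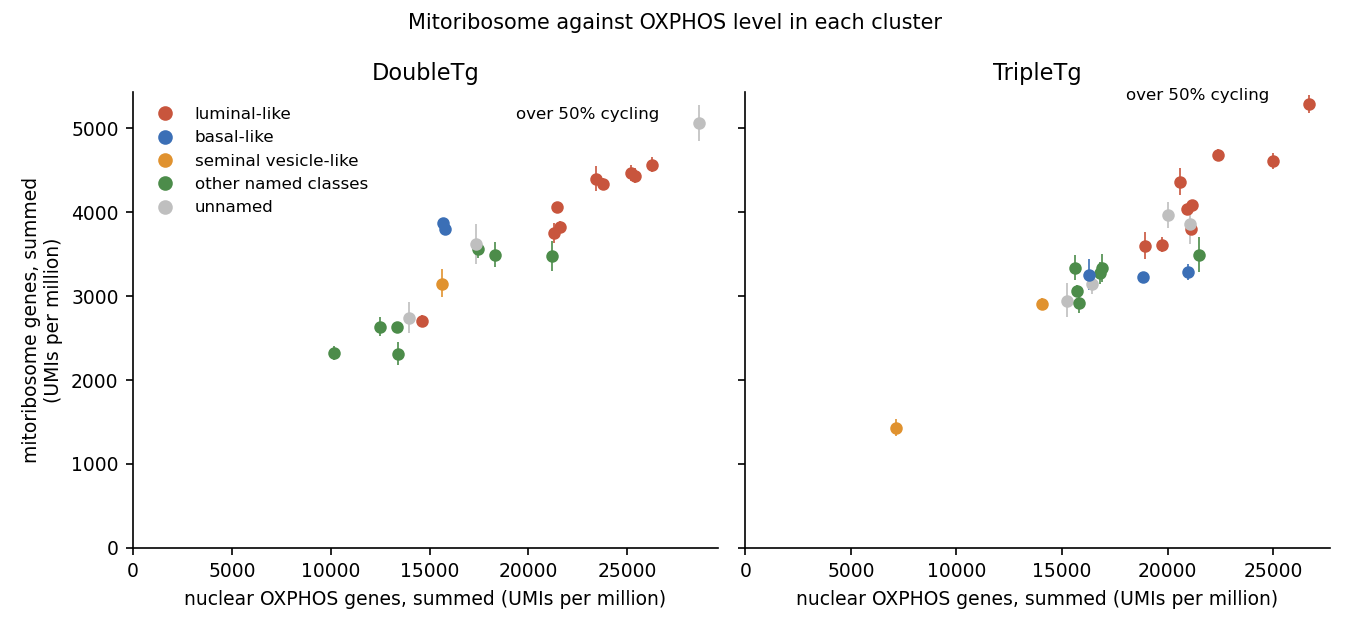
Summed mitoribosome level against summed nuclear OXPHOS level (both CPM) for each cluster of at least 50 cells, 22 in DoubleTg and 24 in TripleTg; lines are exact 95% Poisson intervals. The clusters with over 50% cycling cells, at 5060 and 5286 CPM, lie at the upper right of both panels, and the TripleTg seminal vesicle-like cluster led by Sva lies lowest at 1433 CPM.

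Between genotypes, the members of luminal-like cells differed in both directions. Of the 76 with 5 CPM in either library, 35 were higher and 41 lower in TripleTg, and the median log2 ratio of TripleTg over DoubleTg was -0.01, beside -0.08 over all 9104 genes tested. A gene was counted as past the limit when it was at least 0.32 higher or lower on the log2 scale. Past it on the higher side were 10 of 76 members and 27.3% of all genes, and on the lower side 17 members and 36.3% of all genes. Both shares lie below those of all genes. The sum of the members differed by 0.05 (0.04 to 0.07) on the log2 scale. Without Mrps18a it differed by -0.02, and with mitochondrially encoded and secretory genes left out of the total by -0.03, so the sign of the sum rests on 1 gene and on the total used. Without the DoubleTg cluster led by Scgb2b27 and Sbp it differed by 0.0034. Over the 18 fits that each left out 1 cluster, 9 to 12 members were past the limit on the higher and 16 to 22 on the lower side. Without the TripleTg cluster led by Tchh the sum differed by 0.072 and 10 members were past the limit on the higher and 16 on the lower side. That cluster also gave the lowest TripleTg levels of Mrpl17 and Mrps24 named next.

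Among large-subunit genes, Mrps18a led with 287 CPM in TripleTg and 84.0 CPM in DoubleTg luminal-like cells, a log2 ratio of 1.77 (1.70 to 1.85). Mrpl3, a bacterial-type protein of the large subunit, stood at 38.3 against 20.7 CPM (0.89). Its 9 TripleTg clusters ranged from 31.0 to 45.7 CPM and its 9 DoubleTg clusters from 12.3 to 27.6 CPM. Clusters of 1 library are not replicates, and how many of all genes had ranges that lay apart was not counted. Mrpl34, among the smallest bacterial-type proteins, stood at 46.9 against 27.3 CPM (0.78), with clusters that overlapped. These 3 were the highest ratios of the set.

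The mitochondria-specific Mrpl57 stood at 150 against 92.2 CPM (0.70). Ratios of 0.56, 0.44 and 0.33 were found for Mrpl15, Mrpl13 and Mrpl43. In the opposite direction, the bacterial-type Mrpl17 stood at 62.3 CPM in TripleTg and 111 CPM in DoubleTg (-0.83), and its TripleTg clusters ranged from 44.5 to 88.4 CPM while the lowest DoubleTg cluster stood at 74.9 CPM, so they overlapped. Mrpl42, found only in mitochondria, stood at 37.3 against 57.3 CPM (-0.62). Mrpl40 and Mrpl30 had ratios of -0.48 and -0.47. The higher and the lower large-subunit genes thus included bacterial-type and mitochondria-specific proteins alike.

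The stalk of the large subunit, which recruits translation factors, is built from Mrpl10 and Mrpl12 on a base that includes Mrpl11. These 3 did not move together in luminal-like cells. Mrpl11 was higher in TripleTg (59.1 against 45.5 CPM, log2 ratio 0.38), Mrpl12, which is present in several copies, differed by 0.13 (93.2 against 85.3 CPM), and Mrpl10 was lower (14.0 against 20.1 CPM, -0.52).

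Of the 26 small-subunit genes, 9 were past the limit on the lower side and 2 on the higher, so the share on the lower side was near that of all genes. Mrps24 stood at 71.3 CPM in TripleTg and 123 CPM in DoubleTg (-0.79), and its luminal clusters ranged from 38.4 to 111 and from 92.6 to 168 CPM. Mrps28 stood at 39.7 against 67.1 CPM (-0.76), Mrps6 at 23.0 against 36.3 CPM (-0.66) and Mrps11 at 22.5 against 30.9 CPM (-0.46). All of these have bacterial counterparts. Higher in TripleTg were Mrps33, a mitochondria-specific protein, at 107 against 70.7 CPM (0.60), and Mrps5, of bacterial type, at 64.5 against 45.6 CPM (0.50). Mrps24 overlaps Urgcp and Mrps6 overlaps Slc5a3, both on the same strand, so their counts may be shared. Urgcp stood at 9.91 against 17.7 CPM in luminal-like cells (-0.84), and its basal ratio was -0.24 (-0.69 to 0.20).

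**Figure D3:**
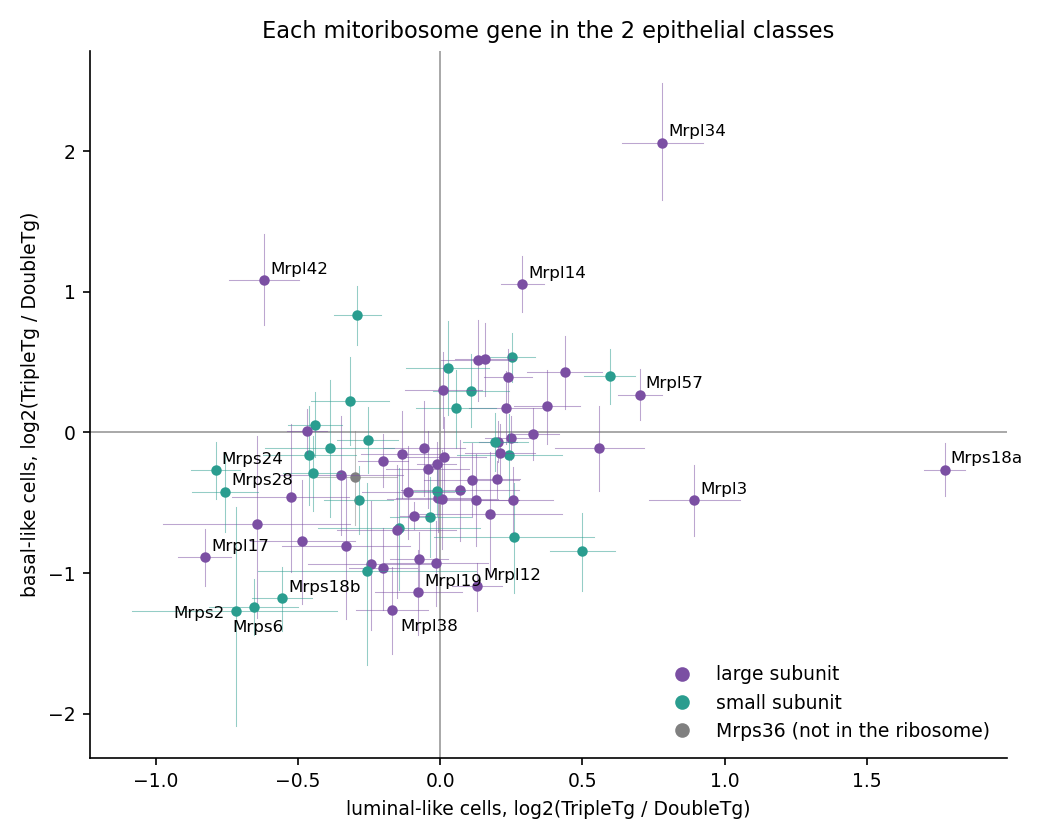
Log2 ratio of TripleTg over DoubleTg for each member in luminal-like cells (horizontal) and basal-like cells (vertical); points are genes coloured by the subunit that holds the protein, and lines are exact 95% intervals for counting error. Mrps18a stands alone at the right with 1.77 in luminal-like and -0.26 in basal-like cells, and Mrpl34 at the top with 2.06 in basal-like cells.

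The Mrps18 family shows how unevenly related members differed. The 3 genes descend from the gene for a single bacterial small-subunit protein. Mrps18b and Mrps18c belong to the small subunit of the mitochondrial ribosome, and Mrps18a to the large subunit. In luminal-like cells Mrps18a was 1.77 higher on the log2 scale in TripleTg, Mrps18b was lower at 51.6 against 75.8 CPM (-0.55), and Mrps18c differed by 0.19 (1355 against 1186 UMIs). In basal-like cells Mrps18a stood at 63.8 against 76.5 CPM (-0.26), Mrps18b at 37.3 against 84.6 CPM (-1.18) and Mrps18c at 56.3 against 58.9 CPM (-0.07, with an interval that includes 0).

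The high level of Mrps18a was not shared by all TripleTg clusters. The 9 DoubleTg luminal-like clusters ranged from 36.5 to 122 CPM. In TripleTg, Mrps18a stood lowest at 63.8 CPM in the cluster led by Reg3b and Reg1, at 89.5 CPM in the cluster led by Tchh and Fabp4, and at 133 CPM in the cluster led by the alpha-defensin genes Gm15293 and Defa5. The other 6 TripleTg luminal-like clusters lay at 238 CPM or more, above every DoubleTg cluster, with 338 CPM in the cluster led by 9530053A07Rik and 524 CPM (502 to 547) in the cluster led by Tff3 and Rnase1. Of the 9 TripleTg clusters, 2 therefore lay within the DoubleTg range. In the other named classes, taken whole, Mrps18a stood between 37.4 and 92.1 CPM in DoubleTg and between 45.0 and 93.9 CPM in TripleTg. By cluster, a TripleTg fibroblast-like cluster led by Apod and Gpx3 stood at 144 CPM (113 to 182), above every DoubleTg cluster, and the other 2 fibroblast-like clusters at no more than 75.2 CPM.

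Mrps18a was also high in some TripleTg clusters with no name. It stood at 221 CPM in the cluster led by haemoglobin genes, at 304 CPM in the cluster led by S100a8 and Retnlg, and at 242 CPM in the cluster led by Gzma and Ccl5. These clusters carried epithelial marker UMIs too, and the part of free or doublet RNA was not tested. In fibroblast-like cells Mrps18a stood at 93.9 CPM in TripleTg and 37.4 CPM in DoubleTg, and the luminal keratin gene Krt8, which fibroblasts should lack, at 971 and 565 CPM.

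**Figure D4:**
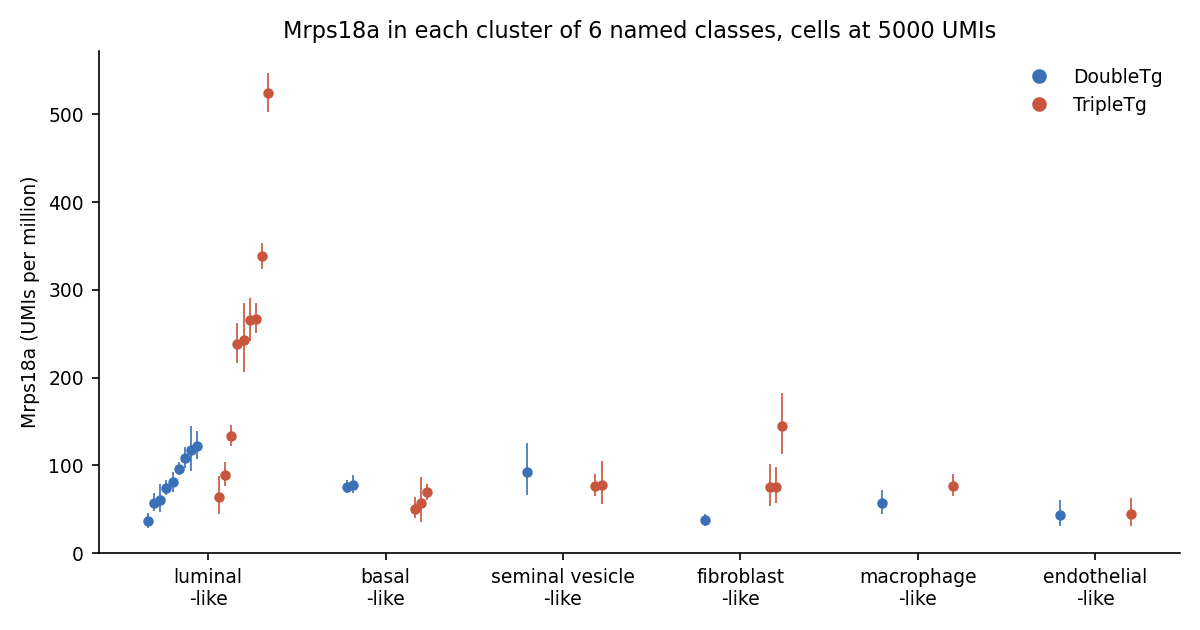
Level of Mrps18a (CPM, cells at 5000 UMIs) in each cluster of 6 named classes; each point is a cluster of at least 50 cells and each line its exact 95% Poisson interval. The 6 highest TripleTg luminal-like clusters lie between 238 and 524 CPM, while the DoubleTg luminal-like clusters lie between 36.5 and 122 CPM.

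Mrps18a lies at chr17:46110986-46128910 on the plus strand of GRCm38, and is overlapped on the opposite strand by Rsph9. Reads of the overlap are told apart only if counting used strand. Rsph9 was lower in TripleTg luminal-like cells, at 7.72 against 14.4 CPM, so it did not follow Mrps18a. The promoters are of 4 genes and are shown, 250 bases before to 50 after the start given by RefSeq on GRCm38.p6, for Mrps18a and Mrpl34, which had 2 of the 3 highest luminal ratios, and for Mrpl17 and Mrps24, which had the 2 lowest. Capitals mark exact matches, on either strand, to the letters searched: CCGGAAG for GABPA, GCGCA, any base and GCGC in a row for NRF1, AANATGGCG for YY1, GGGCGGG for SP1 and CCAAT for NFY. The windows are chr17:46110754-46111053 (plus strand), chr8:71464676-71464975 (plus), chr7:105811038-105811337 (minus) and chr11:5707652-5707951 (minus).
Mrps18a: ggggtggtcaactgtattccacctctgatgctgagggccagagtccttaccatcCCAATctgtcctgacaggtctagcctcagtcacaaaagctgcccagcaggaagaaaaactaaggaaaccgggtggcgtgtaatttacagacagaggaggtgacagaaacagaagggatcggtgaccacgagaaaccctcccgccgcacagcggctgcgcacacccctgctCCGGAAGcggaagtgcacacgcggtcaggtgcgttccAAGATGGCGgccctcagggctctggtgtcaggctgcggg
Mrpl34: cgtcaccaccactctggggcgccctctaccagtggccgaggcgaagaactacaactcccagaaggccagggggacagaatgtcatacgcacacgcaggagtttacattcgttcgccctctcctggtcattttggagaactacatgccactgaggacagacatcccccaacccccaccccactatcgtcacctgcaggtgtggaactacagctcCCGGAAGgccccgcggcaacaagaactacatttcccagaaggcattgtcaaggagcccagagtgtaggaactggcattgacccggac
Mrpl17: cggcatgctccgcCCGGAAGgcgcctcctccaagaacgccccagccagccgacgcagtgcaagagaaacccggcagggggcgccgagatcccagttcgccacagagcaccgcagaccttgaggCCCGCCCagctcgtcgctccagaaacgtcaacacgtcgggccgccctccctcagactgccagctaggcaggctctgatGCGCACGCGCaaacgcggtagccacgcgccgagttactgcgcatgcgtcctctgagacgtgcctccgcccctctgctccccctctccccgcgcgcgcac
Mrps24: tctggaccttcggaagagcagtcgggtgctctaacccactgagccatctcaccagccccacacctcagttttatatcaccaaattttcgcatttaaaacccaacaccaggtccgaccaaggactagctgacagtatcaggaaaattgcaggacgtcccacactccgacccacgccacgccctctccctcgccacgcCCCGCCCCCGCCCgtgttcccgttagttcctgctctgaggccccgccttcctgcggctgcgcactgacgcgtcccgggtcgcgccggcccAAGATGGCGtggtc

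The Mrps18a window holds a GABPA match that begins 26 bases before the start, a YY1 match that begins 12 bases after the start, and an NFY match 196 bases before the start. Mrpl34 holds a GABPA match 37 bases before the start. Mrpl17 holds an NRF1 match 49 bases and a GABPA match 237 bases before the start, and an SP1 match on the opposite strand. Mrps24 holds a YY1 match 37 bases after the start and SP1 matches 54 and 48 bases before the start, on the opposite strand. None of these motifs was found in all 4 windows.

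Promoters were found for 68 of the 77 members. Those of Mrpl4, Mrpl13, Mrpl15, Mrpl19, Mrpl38, Mrpl54, Mrps28, Mrps34 and Mrps35 were not used here. NRF1 and GABPA are activators long known for nuclear genes of mitochondrial proteins, and YY1 acts at many housekeeping promoters. The NRF1 letters were found for 13 of 68 members (19.1%), against 5.19% of all 27025 genes and 12.3% of the 6998 genes with at least 5 CPM in luminal-like cells. The latter share lies within the interval of the members, 10.6% to 30.5%. The GABPA letters were found for 25 (36.8%, against 9.93% and 21.5%) and the YY1 letters for 10 (14.7%, against 2.76% of all genes and 490 of the 6998 expressed genes). The SP1 letters were found for 29 members (42.6%), above the 27.9% of all genes, beside 55.0% of expressed genes. The interval of the members, 30.7% to 55.2%, includes the share of expressed genes. NFY matches (39.7%) and the E-box CACGTG (7.35%) were no more frequent than among all genes (41.1% and 8.09%) or expressed genes (42.4% and 12.7%). The TCF/LEF letters CTTTGAT, which were added after the values were seen, were found for 0 of 68, which allows a share of up to 5.28%, against 4.29% of all genes and 2.94% of expressed genes. A match is a string of letters and not a bound site.

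The large and small subunits are needed in equal number, but their transcripts did not keep 1 ratio across classes. Summed large-subunit UMIs over summed small-subunit UMIs were 2.07 (2.04 to 2.09) in DoubleTg luminal-like cells and 2.56 (2.52 to 2.59) in TripleTg luminal-like cells. Without Mrps18a the TripleTg ratio was 2.31 and the DoubleTg ratio 2.0. Basal-like cells stood at 2.39 in DoubleTg and 2.31 in TripleTg, and the other named classes between 2.01 and 2.62. In luminal-like cells the large-subunit sum was 3017 CPM in TripleTg and 2719 CPM in DoubleTg, a log2 ratio of 0.15 (0.13 to 0.17), or 0.05 (0.03 to 0.07) without Mrps18a. The small-subunit sum was 1181 and 1316 CPM, a log2 ratio of -0.16 (-0.18 to -0.13). Of the 49 large-subunit genes with 5 CPM, Mrps18a included, 8 were past the limit on each side. Among all genes, 27.3% were past it on the higher and 36.3% on the lower side, so both counts lie below those shares. Bacterial-type small-subunit genes had a median of -0.29 and mitochondria-specific ones 0.03, while bacterial-type large-subunit genes had a median of 0.13 and mitochondria-specific ones -0.10.

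Basal-like cells differed more. Their member sum was 3259 CPM in TripleTg and 3848 CPM in DoubleTg, a log2 ratio of -0.24 (-0.27 to -0.21), and 56 of 76 members were lower in TripleTg. The median ratio was -0.28, beside -0.05 over all 9086 genes tested. At least 0.32 lower were 35 of 76 members (36.5% of all genes were), and at least 0.32 higher were 11 (33.8% of all genes were). The log2 ratio was -0.25 for the large subunit and -0.21 for the small. Without the TripleTg cluster led by Mt4 the median was -0.34 and the sum -0.24. The classes held 1098 and 1722 cells. Krt8 stood at 1045 and 1954 CPM in them and Krt5, the basal keratin gene, at 1109 and 1134 CPM.

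The 5 genes with the highest ratios went in the upward direction. Mrpl34 stood at 33.0 CPM in TripleTg and 7.90 CPM in DoubleTg basal-like cells, a log2 ratio of 2.06 (1.65 to 2.49). Its 3 TripleTg clusters of at least 50 cells ranged from 24.3 to 53.3 CPM, and its 2 DoubleTg clusters stood at 6.62 and 10.3 CPM. The TripleTg class also held a cluster of 24 cells led by Krt75 and Ube2c, which is in the class values but in none of the ranges over clusters. Mrpl42 stood at 34.2 against 16.1 CPM (1.08), Mrpl14 at 89.4 against 43.0 CPM (1.06), Mrps21 at 71.9 against 40.4 CPM (0.83) and Mrps14 at 95.6 against 66.0 CPM (0.54). Mrpl14, Mrps21 and Mrps14 have bacterial counterparts. Mrpl42 and Mrps21 had the opposite sign in luminal-like cells, -0.62 and -0.29.

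Among members with at least 10 CPM, the lowest basal ratios were those of Mrpl38 at 20.4 against 48.9 CPM (-1.26), Mrps6 at 49.4 against 116 CPM (-1.24), Mrps18b (-1.18), Mrpl19 at 21.9 against 48.0 CPM (-1.13) and Mrpl12 at 66.8 against 143 CPM (-1.09). Mrpl12 is a stalk protein that is also known to bind the mitochondrial RNA polymerase. Its TripleTg basal clusters ranged from 61.8 to 70.3 CPM, and its DoubleTg clusters stood at 128 and 151 CPM. Mrps6 was less uniform, since its TripleTg clusters ranged from 31.6 to 127 CPM and the DoubleTg clusters stood at 93.0 and 129 CPM. Slc5a3, which overlaps Mrps6, stood at -0.96 in basal-like cells and at -0.24 (-0.53 to 0.05) in luminal-like cells. Mrpl38, Mrpl19 and Mrpl12 differed little in luminal-like cells, by -0.17, -0.08 and 0.13.

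The members were also compared in fibroblast-like and macrophage-like cells. In fibroblast-like cells (358 and 625 cells) the sum was 0.26 (0.21 to 0.31) higher on the log2 scale and the median 0.32, beside 0.07 over all genes, with 37 of 74 members at least 0.32 higher and 13 lower (34.1% and 25.7% of all genes). Krt8 was also higher in TripleTg fibroblast-like cells, at 971 against 565 CPM, and its part was not tested. Mrpl34 led with 35.2 against 10.9 CPM (1.69), then Mrpl36 with 45.3 against 15.7 CPM (1.53) and Mrps18a (1.33). Mrps14 and Mrps25 had ratios of 0.90 and 0.87. Mrpl16 at 10.1 against 23.4 CPM (-1.22) and Mrps6 at 55.3 against 122 CPM (-1.14) had the lowest ratios. Without the cluster led by Col3a1 and Mfap5, the median was 0.16. Cells under 5000 UMIs, 287 in TripleTg and 330 in DoubleTg, were left out, and the median at 2000 UMIs was 0.17.

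In macrophage-like cells (412 and 262 cells) the sum was 0.40 (0.34 to 0.46) higher, and 37 of 76 members were at least 0.32 higher and 10 lower. The median of 0.30 stood close to the 0.25 of all genes, of which 45.6% were higher and 20.8% lower, and with trimmed-mean scaling of the totals it was 0.08. Mrpl15 and Mrpl41 had equal counts, 39.8 against 16.0 CPM (1.31), followed by Mrpl34 (1.24), Mrpl57 at 59.7 against 26.7 CPM (1.16) and Mrps36 (1.09). Mrpl3, higher in luminal-like cells, stood at 20.9 against 35.1 CPM (-0.75). Krt8 was at 472 and 189 CPM in these cells.

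Of the 74 members with 5 CPM in all 4 classes, 3 (4.05%) were at least 0.32 higher in each of them, Mrpl13, Mrpl34 and Mrps33, and none was lower in each. Of all 7086 such genes, 6.17% were higher in all 4 and 3.64% lower in all 4. The ratios of Mrpl34 in luminal-like, basal-like, fibroblast-like and macrophage-like cells were 0.78, 2.06, 1.69 and 1.24. Those of Mrpl13 were 0.44, 0.43, 0.52 and 0.88, and those of Mrps33 were 0.60, 0.40, 0.78 and 0.71. Library, mouse and genotype cannot be told apart for these genes. Mrps18a, with 1.77, -0.26, 1.33 and 0.42, was not among them.

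When epithelial-like cells were restricted to those with a UMI of the human MET transgene before thinning (2393 TripleTg and 4374 DoubleTg cells), the member sum was 3835 CPM in TripleTg and 4068 CPM in DoubleTg. As the shares in classes that should lack the transgene differed, how many positive TripleTg cells express it was not tested. Secretory genes took 5.90% of UMIs in the TripleTg and 4.91% in the DoubleTg group, beside 0.271% and 6.02% in the luminal-like classes. Depth before thinning had a median of 33879 UMIs in the TripleTg group and 25636 in TripleTg luminal-like cells. The part of these differences in make-up was not tested. The median log2 ratio over the members was -0.13, beside -0.17 over all genes. At least 0.32 higher were 7 of 76 members and lower 29, while 23.7% and 40.7% of all genes were. Mrps18a led again, at 219 against 83.6 CPM (1.39), followed by Mrpl34 (0.67) and Mrpl3 (0.66). Mrps28 (-0.90), Mrpl17 (-0.89) and Mrps24 (-0.81) were lowest. These comparisons share cells, so the values are given side by side only.

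Cycling cells carried more mitochondrial ribosome transcripts in TripleTg. A cell was called cycling when it had UMIs of at least 3 of 15 proliferation genes at 5000 UMIs. The 458 cycling epithelial-like cells of TripleTg stood at 5120 CPM and the 5899 others at 3833 CPM, a log2 ratio of 0.42 (0.39 to 0.45). Of 75 members, 73 were higher in cycling cells, 51 at least 0.32, and none was past the limit on the lower side, while 29% of all genes were higher and 18% lower and the median gene was 0.08. The 2 groups differed in make-up, since 403 of the 458 cycling cells were luminal-like and 49 basal-like. Within luminal-like cells the sum was 5283 CPM in 403 cycling and 4127 CPM in 4338 other cells, a log2 ratio of 0.36 (0.33 to 0.39), with 69 of 75 members higher and a median of 0.38 beside 0.04 over all genes. Within basal-like cells it was 3963 CPM in 49 and 3226 CPM in 1049 cells (0.30, interval 0.20 to 0.39). There 38 of 75 members were at least 0.32 higher and 13 lower, beside 39.7% and 24.9% of all genes. The median was 0.32, beside 0.15 over all genes. Over all epithelial-like cells the sums of both subunits were higher, by 0.41 for the large and 0.44 for the small.

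The highest ratio in TripleTg cycling cells was that of Mrpl18, a bacterial-type large-subunit gene, at 78.6 against 33.7 CPM (1.22). Mrpl34 stood at 80.3 against 39.4 CPM (1.03), Mrpl42 at 68.6 against 34.3 CPM (1.0), Mrpl28 at 112 against 57.0 CPM (0.97) and Mrps25 at 55.0 against 28.3 CPM (0.96). Mrps18a stood at 238 against 231 CPM (0.05), so the gene with the highest luminal ratio between genotypes hardly differed with cycling here, and within luminal-like cells alone it was lower in cycling cells, at 259.6 against 289 CPM (-0.16, interval -0.29 to -0.03). Mrpl14 (0.04), Mrpl32 (0.03), Mrps6 (-0.06) and Mrpl9 (-0.23) were lowest, each with an interval that includes 0.

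DoubleTg had 40 cycling epithelial-like cells, and 28 of 76 members were at least 0.32 higher and 17 lower in them, while 45.6% and 24% of all genes were. The median of 0.19 stood beside 0.23 over all genes, and with trimmed-mean scaling it was -0.02. The sum was 0.20 (0.11 to 0.29) higher. Of the 40 cells, 25 were basal-like and 15 luminal-like, a make-up unlike that of TripleTg. Among basal-like cells alone the sum differed by 0.07 (-0.06 to 0.20). With the unnamed cluster of 5060 CPM counted in there were 99 cycling cells, the sum was 0.31, and 31 of 76 members were past the limit on the higher and 1 on the lower side, beside 36.02% and 20.5% of all genes. Single genes had few UMIs. Mrps30 led with 13 UMIs in cycling cells (1.29), then Mrpl3 with 12 (1.10), Mrps22 with 5 (1.04), Mrps2 with 3 (0.98) and Mrpl10 with 7 (0.98). Mrpl40 with 1, Mrpl16 with 2, Mrps25 with 3, Mrps23 with 4 and Mrpl11 with 5 were lowest, at ratios from -2.21 to -0.75. A gene-by-gene order was not detectable at this depth.

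Luminal-like and basal-like cells were also compared within each library. In DoubleTg the member sum was 0.08 higher on the log2 scale in luminal-like cells and the median was 0.11 (0.030 with all UMIs and 0.21 with TMM scaling or the other total), with 26 of 76 members at least 0.32 higher and 21 lower (38.4% and 39.1% of all genes). In TripleTg the sum was 0.37 (0.35 to 0.40) higher and the median 0.32, with 37 of 75 higher and 4 lower (29.2% and 30.1% of all genes). In DoubleTg, Mrpl42 (57.3 against 16.1 CPM, 1.83), Mrpl34 (27.3 against 7.90 CPM, 1.79), Mrps21 (1.46) and Mrpl14 (1.36) were most luminal, and Mrps6 (36.3 against 116 CPM, -1.68), Mrps22 (-1.51) and Mrpl3 (20.7 against 49.1 CPM) most basal. In TripleTg, Mrps18a (287 against 63.8 CPM, 2.17), Mrps5 (64.5 against 27.1 CPM) and Mrpl38 (0.98) were most luminal, and Mrps6 (-1.10) and Mrps22 (-0.51) most basal. Mrps6 and Mrps22 were on the basal side in both libraries.

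Members differed in how far their level varied over classes. In TripleTg, Mrps27 had the widest range, from 5 UMIs in smooth muscle-like cells (16.1 CPM) to 3 in seminal vesicle-like cells (1.16 CPM), followed by Mrps18a from 287 CPM in luminal-like to 45.0 CPM in endothelial-like cells (2.67 on the log2 scale). Mrps6 ranged from 116 CPM in smooth muscle-like to 19.3 CPM in seminal vesicle-like cells, and Mrps5 and Mrpl9 were highest in luminal-like cells at 64.5 and 44.3 CPM and lowest in smooth muscle-like cells, with 4 UMIs each. In DoubleTg, Mrps28 ranged from 67.1 CPM in luminal-like cells to 2 UMIs in dendritic-like cells, and Mrpl18 from 87.6 CPM in T or NK-like to 12.5 CPM in endothelial-like cells. Mrps36 ranged from 46.9 CPM in erythroid-like cells to 2 UMIs in seminal vesicle-like cells. Mrps27 ranged from 20.8 CPM in dendritic-like to 3.02 CPM in T or NK-like cells, and Mrpl3 from 49.1 CPM in basal-like cells to 1 UMI in erythroid-like cells. Most of the lowest values rest on so few UMIs that the ends of these ranges are loose.

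Some proteins of the mitochondrial ribosome fall outside the naming pattern, of which 5 were listed. Dap3, a small-subunit GTP-binding protein also known from apoptosis, stood at 81.0 CPM in TripleTg and 45.5 CPM in DoubleTg luminal-like cells (0.83). Gadd45gip1, a large-subunit protein near the exit tunnel, stood at 54.0 against 35.2 CPM (0.62), and Chchd1, of the small subunit, at 62.7 against 84.2 CPM (-0.42). Aurkaip1 and Ptcd3, also of the small subunit, had ratios of 0.14 and -0.11. In basal-like cells Aurkaip1 had the highest ratio (0.73) and Ptcd3 the lowest (-0.90), with Gadd45gip1 at 0.28, Dap3 at 0.21 and Chchd1 at -0.62. Ict1, the older symbol of the large-subunit gene Mrpl58, was not in the list and stood at 43.2 against 54.5 CPM in luminal-like cells (-0.33), 34.1 against 43.6 CPM in basal-like cells (-0.35) and 55.5 against 40.9 CPM in cycling over other TripleTg cells (0.44). Like the 77 members, these genes differed in both directions.

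The genes that build and use the mitochondrial ribosome gave mixed values in luminal-like cells. Of 15 assembly factors with 5 CPM, 4 were at least 0.32 higher and 5 lower, with the 30S-binding factor Rbfa at 0.52 and the pseudouridine synthase Rpusd4 at -0.79. Of 10 mitochondrial translation and mRNA-handling factors, 3 were higher and 1 lower, from the recycling factor Mrrf (0.40) to the RNA-binding Slirp (-0.62). Of 9 mitochondrial tRNA synthetases, 3 were higher and 4 lower, from Fars2 (0.40) to Yars2 (-0.83). Of 14 transcription and import genes, 6 were higher and 1 lower, from the chaperonin Hspd1 (0.59) to the transcription factor Tfb2m (-0.45). These are to be read beside the 27.3% and 36.3% of all genes given above.

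Nuclear OXPHOS genes resembled the members in luminal-like cells, and cytosolic ribosomal protein genes did not. The median ratio was -0.04 for OXPHOS (7 higher and 20 lower of 76, from Ndufs1 at 0.60 to Ndufa1 at -1.31) and 0.49 for cytosolic ribosomal proteins (51 higher and 7 lower of 81, from Rpl7 at 1.17 to Rps27 at -0.65). Mitochondrially encoded mRNAs had a median of 0.08 (3 higher and 2 lower of 13, from mt-Nd6 at 1.77 to mt-Nd3 at -0.55). In basal-like cells the members had a lower median than these 3 groups. Beside the 33.8% of all genes past the limit on the higher and 36.5% on the lower side, members had a median of -0.28, while OXPHOS genes had 0.27 (36 higher and 2 lower of 75), cytosolic ribosomal proteins 0.21 (21 and 9 of 81, both below the share of all genes) and mitochondrially encoded mRNAs 0.46 (8 and 0 of 13). Assembly factors also had a negative median there, -0.95 (3 higher and 10 lower of 15), while their sum differed by -0.42. Medians were -0.38 for translation factors (1 and 6 of 11) and -0.49 for transcription and import genes (1 and 7 of 14). The tRNA synthetases had -0.19 (2 and 2 of 8).

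In cycling TripleTg cells, members and OXPHOS genes had the same median to 2 decimals, 0.42 and 0.42, and 51 genes of each were at least 0.32 higher. Cytosolic ribosomal protein genes had a median of 0.05 (2 higher of 81) and mitochondrially encoded mRNAs of 0.08 (0 higher of 13). Of 16 assembly factors 8 were past the limit on the higher side and 1 on the lower (median 0.35), and of 12 translation factors 7 and 1 (median 0.54), beside the 29% and 18% of all genes. In fibroblast-like and macrophage-like cells the OXPHOS medians were 0.32 and 0.65, and those of cytosolic ribosomal proteins 0.04 and 0.07.

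**Figure D5:**
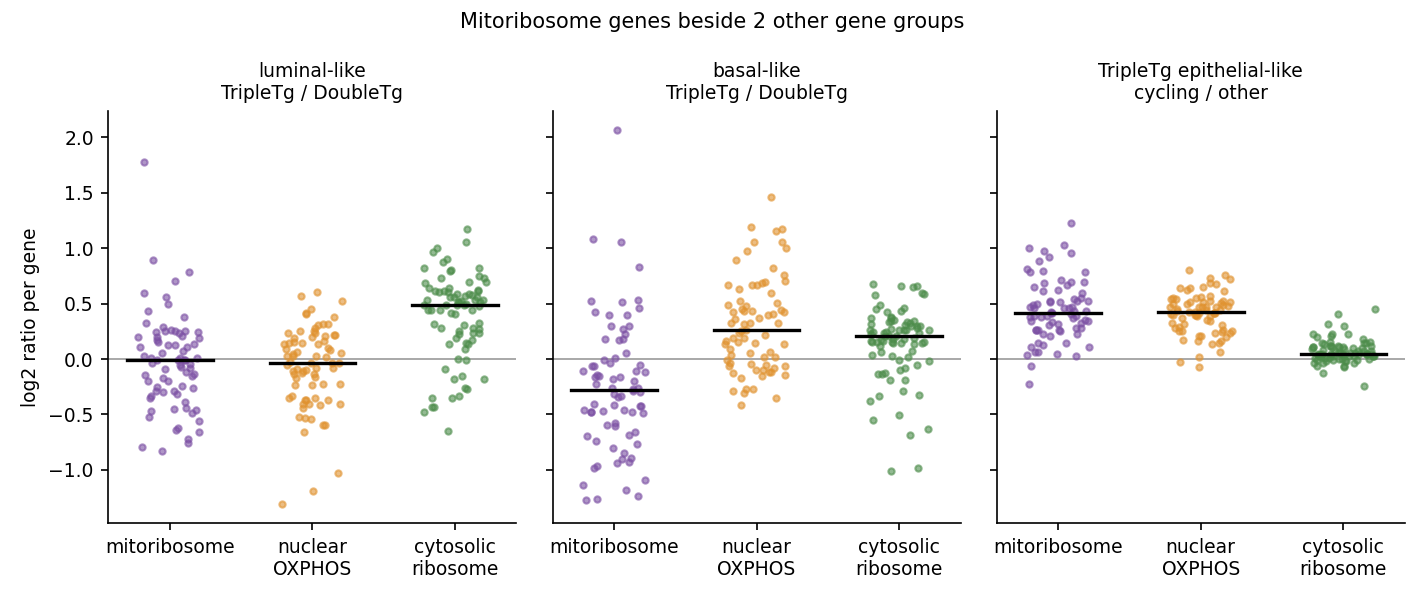
Log2 ratio of each gene with at least 5 CPM in 3 gene groups and 3 comparisons; points are genes and black lines medians. In luminal-like cells the mitoribosome median is -0.01 and the cytosolic ribosome median 0.49, in basal-like cells the mitoribosome median is -0.28 and the OXPHOS median 0.27, and in cycling TripleTg cells both mitoribosome and OXPHOS medians are 0.42.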

How the data were processed

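Prostate tissue with tumour lesions, in 1 DoubleTg and 1 TripleTg library, was profiled with 10x Genomics 3′ v3 chemistry. The authors made UMI counts with Cell Ranger 6.0.2 (mm10 with the transgene sequences), per the submitters' processing notes, though the header of the deposited DoubleTg matrix names 6.1.1. The deposited values are raw counts per gene and barcode. The limits of the study were applied: a cell needed more than 200 but fewer than 7000 genes, with mitochondrial UMIs below 15%. They leave all 9492 TripleTg barcodes, the number the study also gives, and 10598 of 12072 DoubleTg barcodes, which is more than the study gives, so the DoubleTg table differs from the one used there. Total deposited counts were 302424122 in DoubleTg and 229655259 in TripleTg.

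Each library was clustered with scanpy 1.11.5 and leidenalg 0.10.2 (Python 3.11.15) at resolution 1 on 2000 variable genes without the members, and clusters were named from fixed markers. The thresholds of that naming were set after the clusters were seen. The part of doublets was limited only by the 7000 gene limit: Scrublet called 296 DoubleTg cells (2.79%) and 0 TripleTg cells, where it has not worked. Cells were thinned to 5000 UMIs, counts summed per class, and log2 ratios given for genes that reached 5 CPM in one of the groups, with exact conditional binomial intervals (scipy 1.17.1). Sums have exact Poisson and shares Clopper-Pearson intervals. With 1 library per genotype there is no test, so genes past 0.32 on the log2 scale were counted and set beside the same count over all genes. Intervals cover counting error only.

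The members and lists were chosen with earlier results of these data known. Genes named are, among members that reached 10 CPM in a group compared, the 10 highest and 10 lowest luminal ratios, the 5 of each in basal-like and in cycling cells, the 5 widest class ranges, the 10 highest and 5 lowest luminal levels (the lowest taken over all members, which departs from the rule's minimum), the Mrps18 family, the stalk and the 5 listed proteins outside the pattern, with the extremes of each pathway list. Those named for fibroblast-like, macrophage-like and transgene-positive cells and for luminal over basal, and Ict1, were chosen after their values were seen. Positions are from GENCODE M21 and promoters from RefSeq (GRCm38.p6). Counts were also simulated, with both groups drawn from the DoubleTg luminal-like profile with counting error only, and 8557 genes reached 5 CPM. The 200 changed genes had at least 20 CPM. Of these, 100 of 100 genes made 1.5-fold higher and 100 of 100 made lower were recovered past 0.32 on the log2 scale. Of the unchanged genes, 123 of 8357 were also past it, and 192 of 200 intervals held the true ratio. This checks the ratio code only, and not differences between libraries, mice or clusters. Alternatives were 2000 UMIs or all UMIs per cell, TMM scaling (edgeR 4.0.16), Leiden resolution 0.5, a 20 CPM minimum, a 1.5-fold limit, cycling cells left out and another denominator.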

Additional observations from a re-analysis of the deposited data

How the results depend on the processing

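Values here are median log2 ratios over the members. In luminal-like cells the main value of -0.01 was -0.050 at 2000 UMIs, -0.031 at Leiden resolution 0.5, 0.018 with TMM scaling, -0.083 without cycling cells and -0.10 with mitochondrially encoded and secretory genes left out of the total, and the sum of 0.05 was -0.035 with that total and -0.017 without Mrps18a. In basal-like cells it was -0.22 at 2000 UMIs, -0.32 with TMM, -0.25 with all UMIs, -0.19 at 20 CPM and -0.34 without the cluster led by Mt4. In fibroblast-like cells it was 0.17, 0.22, 0.24 and 0.41 under the first 4 of these, and 0.39 without the top 5% of Scrublet scores. In macrophage-like cells it was 0.44, 0.076, 0.39 and 0.44. In transgene-positive cells it was -0.22, -0.057, -0.15 and -0.10, and -0.18 without cycling cells. Cycling over other cells gave 0.46 at 2000 UMIs, 0.30 with TMM, 0.53 with all UMIs and 0.37 with the other total in TripleTg, and 0.31, -0.025 and 0.30 under the first 3 in DoubleTg, where the TMM sum was -0.0095. Within luminal-like cells it was 0.38 in TripleTg, and within basal-like cells 0.32 in TripleTg and 0.0081 in DoubleTg. Luminal over basal gave 0.21 with TMM, 0.030 with all UMIs, 0.15 at 20 CPM and 0.21 with the other total in DoubleTg, and 0.26 at 2000 UMIs, 0.28 at resolution 0.5, 0.42 with TMM, 0.29 with all UMIs and 0.27 without the top Scrublet scores in TripleTg. The log2 range from highest to lowest class, 0.82 in DoubleTg, was 0.91 at 2000 UMIs and 1.07 with the other total, and 0.70 in TripleTg became 0.66, 0.76 with all UMIs and 0.52 with the other total. The causes were not tested. TMM moved the log2 ratios of all genes by -0.22 to 0.10. At 1.5-fold, 5 members were higher and 7 lower in luminal-like cells (18.1% and 24.4% of all genes), 4 and 21 in basal-like cells (24.95% and 24.8%), and 20 higher in cycling TripleTg cells (14.5%).

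The settings with top Scrublet scores, without Mrps18a, without clusters, within 1 class and with the unnamed cycling cluster were chosen after seeing the data. Leaving out single clusters moved the luminal median between -0.07 and 0.02, the basal median between -0.34 and -0.21 and the fibroblast median between 0.16 and 0.39. Counting in the unnamed DoubleTg cluster, whose leading genes include neutrophil genes, gave a sum of 0.31. Among cycling cells alone the luminal comparison gave no value, since DoubleTg had 15. Doublet calls could not be used for TripleTg. Of the alternative medians, 42 moved by less than the counting interval, 41 by more and 2 changed sign. No paired analysis was possible because each group is 1 library.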
